A study of Mus musculus with 8 samples.

Results

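Aminoacyl-tRNA synthetases are described here together with the proteins that hold some of them in a complex. The members are 20 cytosolic synthetase genes, 16 mitochondrial paralogs whose symbols end in 2, and the scaffold genes Aimp1, Aimp2 and Eef1e1, which makes 39 in all. A member was taken as measured if at least 1 probe set carried its symbol and no other. That held for 29 of the 39 members, among 12393 genes with such a probe set, and for 52 of 22690 probe sets. Measured were 18 cytosolic genes, 8 mitochondrial genes and all 3 scaffold genes. The cytosolic genes Dars and Mars and the mitochondrial genes Aars2, Cars2, Lars2, Mars2, Nars2, Vars2, Wars2 and Yars2 had no such probe set and were not analysed here. All 29 measured members were bright enough to be tested, through 45 of their 52 probe sets.

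The RNA came from C2C12 myotubes, that is, from an immortalised mouse myoblast line that fuses into multinucleate muscle fibres when serum is withdrawn. All cultures differentiated in DMEM with 2% horse serum and received fresh medium up to day 4. Control cultures (4 arrays, A to D) were then given new medium at 48 h intervals, while starved cultures (4 arrays, E to H) stayed in the old medium for 4 days, and both were harvested on day 8. The labels define starvation by the missed medium changes alone, so loss of any 1 nutrient and the other effects of old medium cannot be told apart. They do not say whether the arrays of a group came from separate cultures, so the p-values reflect the spread of these arrays only, and that spread may be technical.

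Each aminoacyl-tRNA synthetase joins 1 amino acid to its transfer RNAs and so supplies the ribosome. Cytosolic and mitochondrial translation use separate enzymes for most amino acids, and both sets are encoded in the nucleus; Gars and Kars are exceptions, since each of these genes makes the cytosolic and the mitochondrial enzyme. Several cytosolic synthetases sit in a multisynthetase complex around the scaffolds Aimp1, Aimp2 and Eef1e1. Uncharged tRNA activates the kinase GCN2 (gene Eif2ak4), which raises translation of the transcription factor ATF4, and ATF4 binds C/EBP-ATF response elements in genes of amino acid supply, several synthetase genes among them.

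Because several members are known targets of that pathway, the sequence around their transcription starts is shown first. RefSeq promoter windows of mouse assembly GRCm38.p6, each 250 bases before and 50 bases after a gene's start, were used for 28 of the 39 members in 30 windows, and 19 of these genes were measured on the arrays. No window was used for Aars, Cars, Hars, Lars, Mars, Nars, Rars, Vars, Wars, Hars2 and Pars2. The 8 letters TGATGNAA of the C/EBP-ATF response element, with N for any base, were searched on both strands. The motif was chosen with earlier results of these data known, and a match describes letters and does not show a bound site. Every match in these windows is given below with its 30-base surroundings, read 5′ to 3′ on the gene's strand, with the matching letters in capitals; TTGCATCA and TTTCATCA are the element read on the other strand.
Gars chr6:55037960-55037989, plus strand, match 30 bases before the start: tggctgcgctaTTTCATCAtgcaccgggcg
Iars chr13:49682126-49682155, plus strand, match 7 bases after the start: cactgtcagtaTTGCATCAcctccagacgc
Tars chr15:11399655-11399684, minus strand, match 15 bases before the start: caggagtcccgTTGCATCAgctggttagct
Yars chr4:129189895-129189924, plus strand, match 3 bases after the start: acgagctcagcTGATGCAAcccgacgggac

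The matches fell on 4 of 11 cytosolic windows (36.4%), in Gars, Iars, Tars and Yars, against 3.97% of all 32851 windows. None of 15 windows of 14 mitochondrial genes and none of 4 scaffold windows held the letters. Of the 6 cytosolic genes with a window that were called higher in starved myotubes, 3 held a match, and Eprs, Kars and Sars did not. Of 4 measured cytosolic genes with a window that were not called, Yars held the only match. The stricter form TGATGCAA was in 3 of 11 cytosolic windows (27.3%) and in 0.895% of all windows. That form is a subset of the first. The E-box CACGTG, none of whose matches overlaps a response element in these windows, was in the cytosolic windows of Farsb, Iars and Tars (27.3%), in 1 of 15 mitochondrial windows (Ears2, 6.67%), and in 7.15% of all windows.

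**Figure D1:**
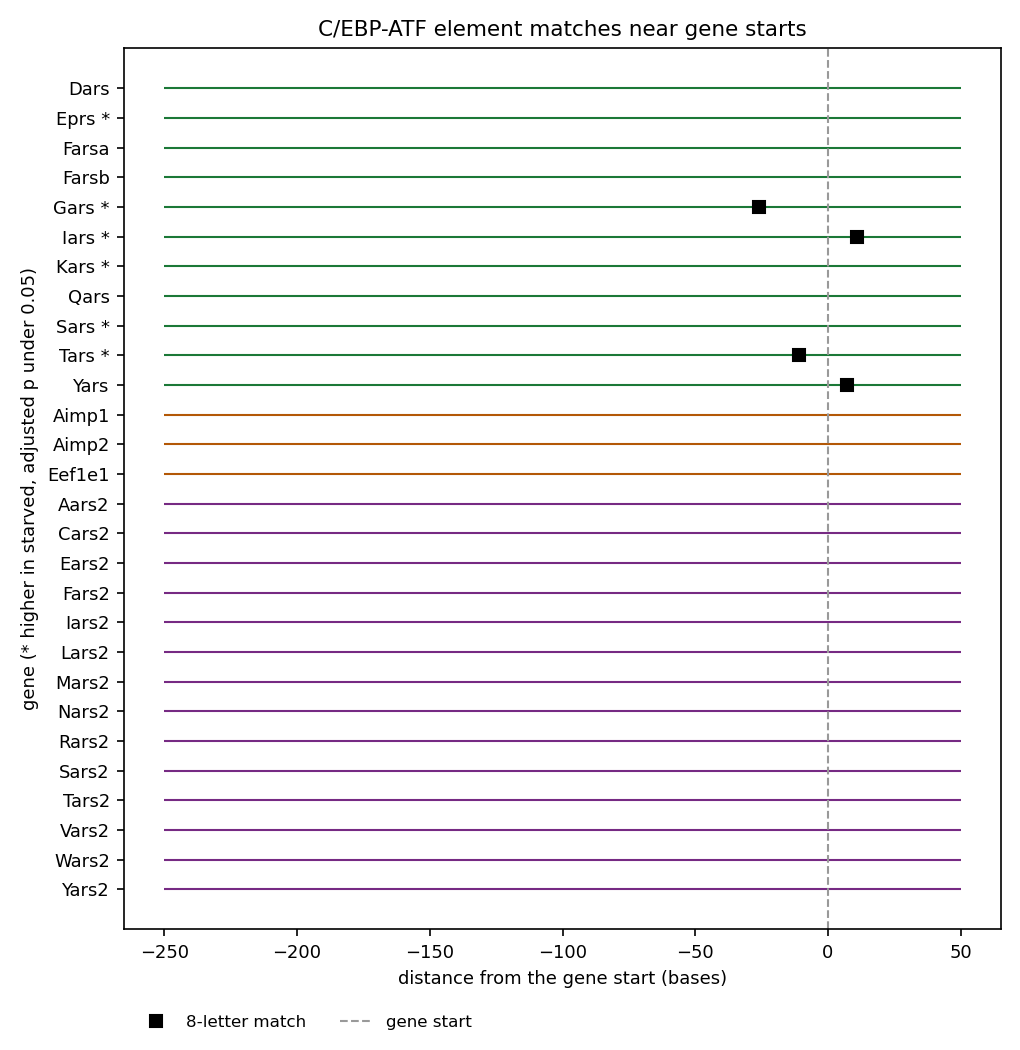
Positions of the response element (TGATGNAA) in the promoter windows of the members, as the distance in bases from the transcription start on the horizontal axis, 1 row per gene. Squares mark the middle of the 4 matches, whose first base lies at -30 in Gars, 7 in Iars, -15 in Tars and 3 in Yars, and none lies in a mitochondrial or scaffold gene.

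The 250 bases before the start are printed in full for Tars and for Tars2, its mitochondrial paralog, because Tars rose in starved myotubes and holds a match upstream of the start, whereas Tars2 was not called and holds none. The pair was picked for this contrast, and a link between match and change was not tested. Other genes differ from it: Sars rose without a match in its window, and Yars holds a match but was not called. Capitals again mark the response element.
Tars chr15:11399659-11399908, minus strand: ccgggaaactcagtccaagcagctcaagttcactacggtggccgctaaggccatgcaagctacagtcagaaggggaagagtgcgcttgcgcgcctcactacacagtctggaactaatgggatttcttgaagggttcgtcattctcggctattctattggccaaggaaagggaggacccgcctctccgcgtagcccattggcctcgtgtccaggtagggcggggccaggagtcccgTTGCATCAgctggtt
Tars2 chr3:95754978-95755227, minus strand: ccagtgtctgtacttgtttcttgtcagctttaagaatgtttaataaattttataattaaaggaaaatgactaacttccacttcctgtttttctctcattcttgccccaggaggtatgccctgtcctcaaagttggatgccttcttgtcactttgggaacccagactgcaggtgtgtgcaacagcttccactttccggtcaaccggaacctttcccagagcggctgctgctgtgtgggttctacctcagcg

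Signals are log2 values after quantile normalization of the arrays with an offset of 10.9 intensity units added, and a difference of 1 is a 2-fold change. Fold changes are starved minus control from limma's linear model with their standard error (SE), n = 4 arrays per group. A gene is called higher or lower where its Benjamini-Hochberg adjusted p, taken over all 13575 probe sets tested, is below 0.05, and it is represented by its brightest probe set. Signals of different probe sets do not measure the relative abundance of different mRNAs. The trimmed mean intensity of the arrays ran from 243 to 455, and starved arrays differed from controls by -0.38 in its log2 (two-sided exact permutation p = 0.0857). Control B stood apart in 1 of 2 measures of RNA integrity: its log2 ratio of the 3′ to the 5′ probe set was 1.40 for Gapdh, against -0.23 to -0.04 on the other 7 arrays, but 0.32 for actin, where the others ran from 0.02 to 0.29. Values of member genes, groups and paralog pairs that it moved by over 1.5 times are given without it too. Cell type markers were not refitted without it.

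Starved myotubes carried more mRNA of most cytosolic synthetases, and no such rise was called for the 8 measured mitochondrial paralogs. Gars and Kars, which make the enzymes of both compartments, are counted as cytosolic here and were both called higher. Of 18 cytosolic genes 12 rose, 0 fell and 6 did not pass, where 4.25% of the 8352 genes tested were called higher and 6.94% lower. For the same 12 genes every starved array lay above every control array, which held for 8.23% of all genes, while 10.2% of all genes lay wholly below. The median log2 fold change was 0.65 over the cytosolic genes (range 0.02 to 0.95), 0.04 over the 8 mitochondrial genes (-0.24 to 0.43; 0.0865 without control B), 0.22 over the 3 scaffold genes and 0.01 over all genes tested. None of the 8 mitochondrial genes was called by limma in either direction, and 0 passed an unadjusted p of 0.05. Of these genes 4 had a positive and 4 a negative fold change. Their probe sets were also dimmer, with mean log2 signals of 7.36 to 8.75, against 8.79 to 11.80 for the cytosolic genes. By probe set, 20 of 32 cytosolic ones tested were called higher, against 4.37% of all probe sets, and 0 lower, against 6.23%. The counts rest on scaling: with the arrays left unscaled the median of all probe sets moved from 0.02 to -0.33 and the cytosolic median to 0.26, and only Lars and Sars passed. Without control B the cytosolic count was 13, and without starved H it was 14.

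**Figure D2:**
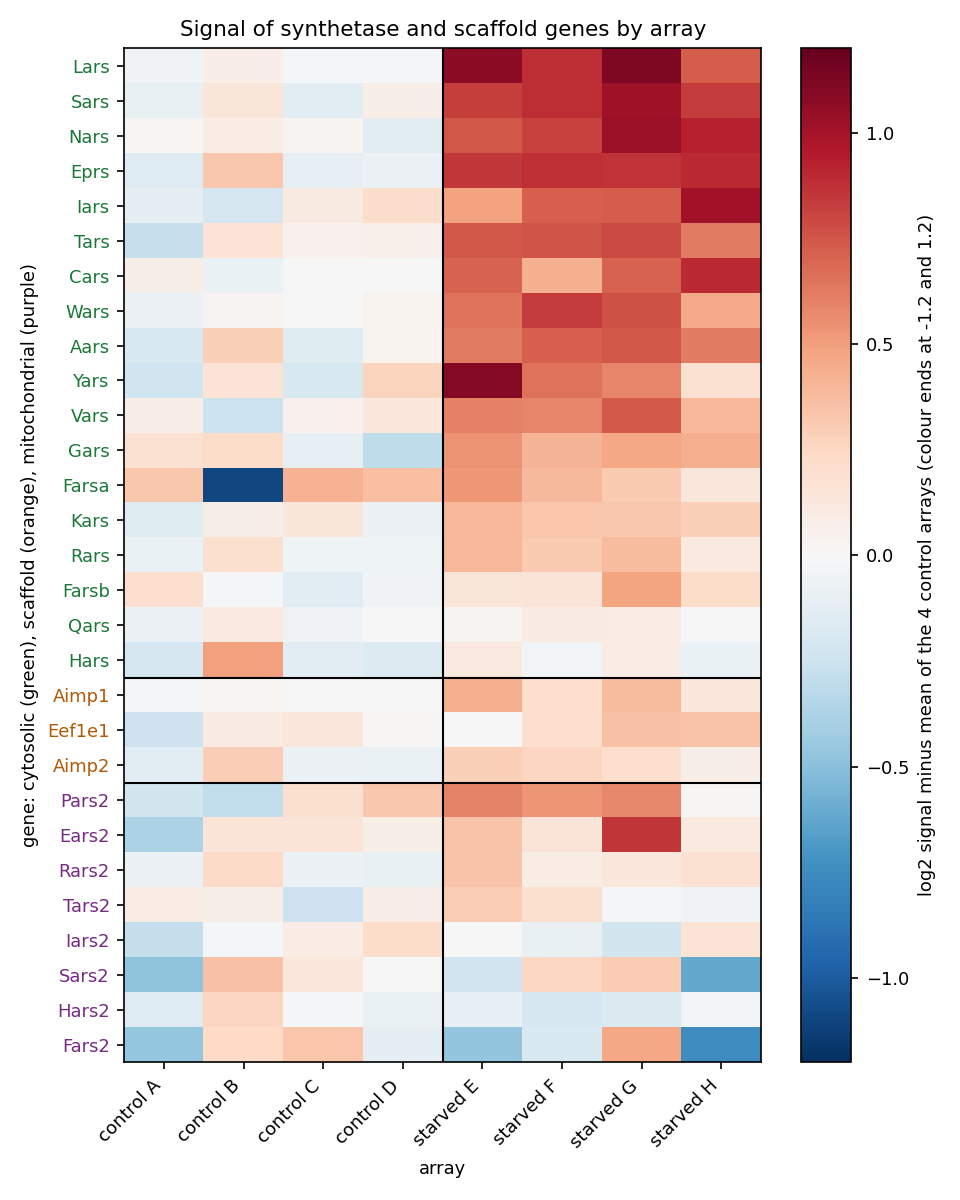
Heat map of the log2 signal of each member on each array minus the member's mean over the 4 control arrays; red is above and blue below that mean. The rows of the 12 called cytosolic genes are raised on starved arrays E to H, and the mitochondrial rows show no such block; control B is low for Farsa and high for Hars.

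Array by array, the median deviation of the 18 cytosolic genes from their control means was -0.08, 0.10, -0.03 and 0.00 on controls A to D and 0.61, 0.62, 0.72 and 0.45 on starved E to H. The groups were thus separate, with starved H nearest to the controls. For the 8 mitochondrial genes the medians were -0.26, 0.19, 0.11 and 0.04 on controls and 0.14, 0.12, 0.22 and -0.01 on starved arrays, which overlap. The 3 scaffold genes ran from -0.13 to 0.10 on controls and were at 0.28, 0.20, 0.35 and 0.13 on starved arrays.

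Lars, the leucyl-tRNA synthetase, had one of the highest fold changes of the members; it also acts as a leucine sensor of the mTORC1 pathway. Its log2 signal was 9.93, 10.05, 9.95 and 9.95 on controls A to D and 11.04, 10.85, 11.08 and 10.70 on starved E to H. The groups were far apart, and Lars rose by 0.95 ± 0.10 (SE), or 1.93-fold (adjusted p = 8.03e-05). Sars, which charges serine tRNAs and the selenocysteine tRNA, was at 10.74, 10.97, 10.70 and 10.90 on controls and at 11.66, 11.71, 11.84 and 11.67 on starved arrays. It rose by 0.89 ± 0.08, or 1.85-fold (adjusted p = 3.85e-05), and its other probe set gave 1.15 ± 0.12, or 2.22-fold. Nars, the asparaginyl-tRNA synthetase, had 10.68, 10.76, 10.70 and 10.53 on controls and 11.41, 11.49, 11.70 and 11.60 on starved arrays, a rise of 0.88 ± 0.08 (adjusted p = 5.54e-05). The fold changes of these 3 enzymes stood above 99% of all genes tested, at percentile 99.2 for Lars and 99.1 for Sars and Nars.

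Within the multisynthetase complex, 4 of 6 measured enzymes rose (Lars, Eprs, Iars and Kars), with a median of 0.53, against 8 of 12 outside it, with a median of 0.65. Eprs is the bifunctional enzyme that charges both glutamate and proline tRNAs. Its signal was 9.67, 10.14, 9.72 and 9.74 on controls and 10.67, 10.70, 10.68 and 10.71 on starved arrays, so that the starved arrays were nearly equal and control B was the nearest control. Eprs rose by 0.87 ± 0.11, or 1.83-fold (adjusted p = 0.000328), and its other 2 probe sets gave 0.77 and 0.68. Iars, the isoleucyl enzyme, had 9.80, 9.72, 10.02 and 10.13 on controls and 10.40, 10.63, 10.65 and 10.92 on starved arrays. It rose by 0.73 ± 0.13, or 1.66-fold (adjusted p = 0.0035), and by 0.93 in its other probe set. Kars, the lysyl enzyme of both compartments, changed less, from 9.96, 10.17, 10.25 and 10.04 to 10.50, 10.44, 10.43 and 10.39. Its rise of 0.34 ± 0.09 (adjusted p = 0.0295) was the smallest called, and the call was lost when control A or D or starved E, F or G was left out.

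The arginyl enzyme Rars and the glutaminyl enzyme Qars, both also of the complex, were not called. Rars was at 10.35, 10.63, 10.38 and 10.38 on controls and at 10.83, 10.75, 10.82 and 10.55 on starved arrays. Only control B overlapped the starved arrays, the difference was 0.30 ± 0.09 (adjusted p = 0.0685, 95% interval 0.09 to 0.51), and without control B it passed (adjusted p = 0.0228), as it did without starved H (0.0305). Qars showed 9.43, 9.61, 9.46 and 9.49 on controls and 9.53, 9.60, 9.59 and 9.50 on starved arrays. Its difference of 0.05 ± 0.08 had a 95% interval of -0.13 to 0.24, and the difference was 0.09 without control B. The upper bound of 0.24 is below the lower bounds of the intervals for Lars (0.74), Eprs (0.64) and Iars (0.45). Further tested Qars probe sets gave 0.17 (95% interval -0.18 to 0.52) and -0.15. The upper bound of 0.52 lies above the lower bound for Iars.

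Among the enzymes outside the complex, Tars, the threonyl enzyme, was at 9.56, 10.00, 9.89 and 9.91 on controls and at 10.59, 10.60, 10.63 and 10.46 on starved arrays. Tars rose by 0.73 ± 0.10 (1.66-fold, adjusted p = 0.000944). Aars, the alanyl enzyme, moved from 10.46, 10.93, 10.50 and 10.68 to 11.26, 11.36, 11.39 and 11.25. The rise of 0.67 ± 0.10 (adjusted p = 0.00156) was matched by 0.66 in the other Aars probe set. Cars, the cysteinyl enzyme, had 9.42, 9.27, 9.34 and 9.35 on controls and 10.05, 9.77, 10.06 and 10.25 on starved arrays, a rise of 0.69 ± 0.11 (adjusted p = 0.00177). Cars has a second, dimmer probe set that was not tested, and with the mean of both the difference was 0.42 and not called (adjusted p = 0.062).

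Wars, the tryptophanyl enzyme, is known as an interferon-induced gene as well. It was at 9.53, 9.64, 9.60 and 9.64 on controls and at 10.26, 10.44, 10.37 and 10.06 on starved arrays, and rose by 0.68 ± 0.10 (adjusted p = 0.00102). Of its other 3 probe sets 2 were called too (0.56 and 0.59), and the dimmest, at 0.48, was not (adjusted p = 0.125). Vars, the valyl enzyme, was at 9.37, 9.04, 9.35 and 9.42 on controls and at 9.90, 9.89, 10.03 and 9.69 on starved arrays, a rise of 0.58 ± 0.11 (adjusted p = 0.00681). Gars, the glycyl enzyme of both compartments, was at 11.75, 11.79, 11.47 and 11.26 on controls and at 12.10, 11.98, 12.03 and 12.01 on starved arrays. Here the controls spread more than the starved arrays, and the rise of 0.46 ± 0.11 (1.38-fold, adjusted p = 0.0188) lost its call without control C or starved E.

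Yars, Farsa, Farsb and Hars were not called. Yars, the tyrosyl enzyme, had 8.94, 9.35, 8.99 and 9.44 on controls and 10.28, 9.83, 9.77 and 9.37 on starved arrays. Starved H lay among the controls and the other starved arrays above them, the difference was 0.63 ± 0.18 (adjusted p = 0.0532, 95% interval 0.22 to 1.04), and without starved H it passed (adjusted p = 0.0161). Farsa and Farsb encode the subunits of the cytosolic phenylalanyl enzyme. Farsa was at 9.50, 8.08, 9.59 and 9.53 on controls and at 9.70, 9.57, 9.49 and 9.31 on starved arrays, so that control B alone was low. Its difference of 0.34 ± 0.29 (adjusted p = 0.527) was -0.02 without that array. Farsb was at 9.50, 9.28, 9.16 and 9.26 on controls and at 9.44, 9.46, 9.77 and 9.52 on starved arrays, a difference of 0.25 ± 0.11 (adjusted p = 0.204), and its other 2 tested probe sets both gave 0.33. Hars, the histidyl enzyme, showed 8.58, 9.27, 8.66 and 8.62 on controls and 8.90, 8.75, 8.87 and 8.70 on starved arrays. Control B was the high array here. The difference was 0.02 ± 0.15 (95% interval -0.32 to 0.36) and 0.18 without control B. The other tested Hars probe set gave -0.09.

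**Figure D3:**
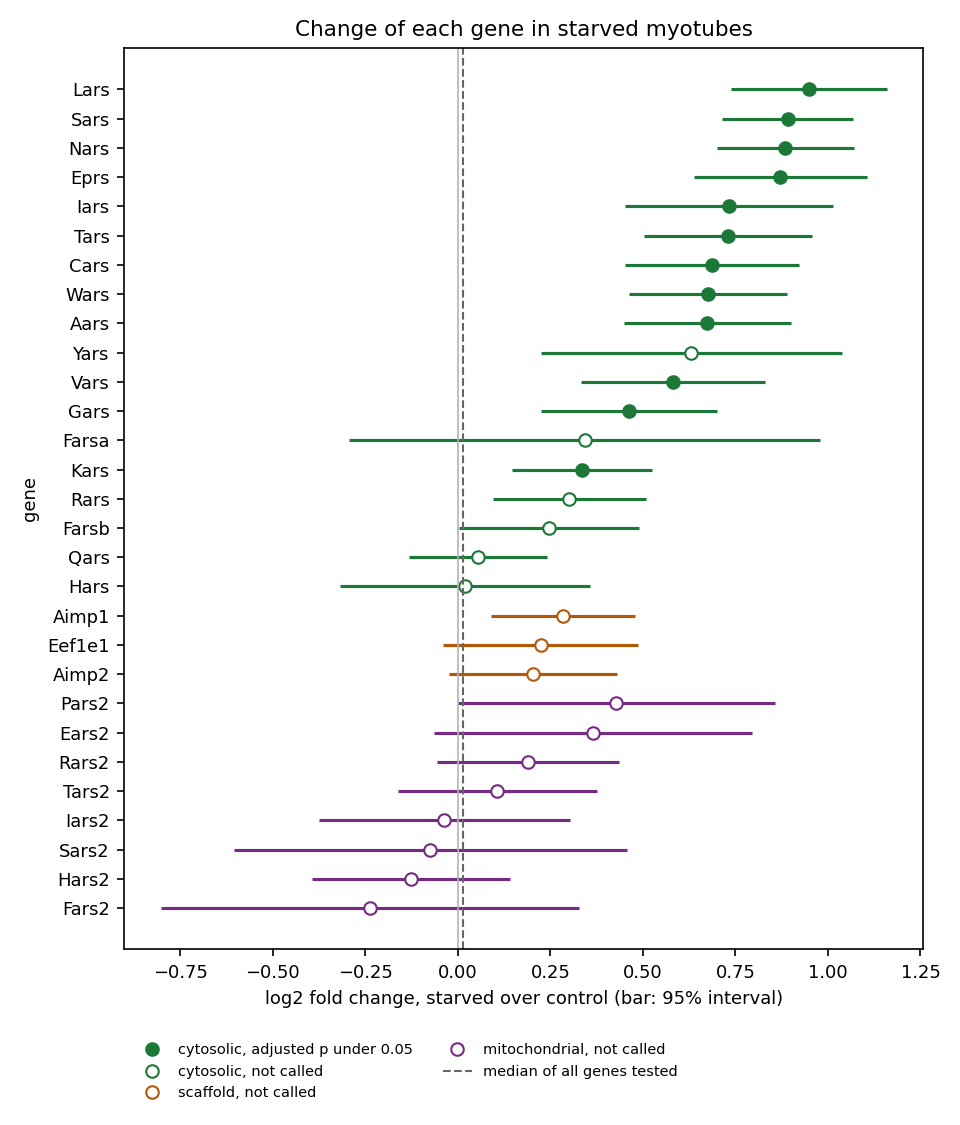
Log2 fold change of each measured member, starved minus control, as points with limma's 95% interval, coloured by group. The 18 cytosolic genes run from 0.02 (Hars) to 0.95 (Lars), the 8 mitochondrial genes from -0.24 (Fars2) to 0.43 (Pars2), and the 3 scaffold genes from 0.20 to 0.28.

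The structural classes of the enzymes, which differ in the fold of their catalytic domain, did not separate the cytosolic genes by count: 6 of 9 class I and 6 of 9 class II genes rose, with medians of 0.68 and 0.46. The bifunctional Eprs was counted in class I only, although its paralogs Ears2 and Pars2 are of class I and class II. Several probe sets were tested for 11 members. Of the 12 called genes 6 had further tested probe sets, 9 in number, of which 8 were called higher and 9 lay above 0. The other 6 called genes rest on 1 tested probe set each.

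Among the mitochondrial enzymes, Pars2 (prolyl) was at 6.95, 6.88, 7.36 and 7.49 on controls and at 7.76, 7.70, 7.74 and 7.18 on starved arrays, where starved H alone lay among the controls. The difference of 0.43 ± 0.19 was not called (adjusted p = 0.211) and its 95% interval reached up to 0.86. Ears2 (glutamyl) had 6.98, 7.51, 7.52 and 7.43 on controls and 7.70, 7.51, 8.22 and 7.47 on starved arrays, a difference of 0.37 ± 0.20 (adjusted p = 0.292). Rars2 (arginyl) was at 8.59, 8.88, 8.59 and 8.57 on controls and at 9.00, 8.75, 8.80 and 8.84 on starved arrays, with a difference of 0.19 ± 0.11 (adjusted p = 0.341) that was 0.26 without control B. In each of these 3 genes at least 1 control array overlapped the starved arrays.

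Tars2 (threonyl) was at 8.77, 8.76, 8.44 and 8.76 on controls and at 8.97, 8.88, 8.66 and 8.64 on starved arrays, a difference of 0.11 ± 0.12, and its dimmer probe set gave 0.14. Iars2 (isoleucyl) had 7.23, 7.49, 7.61 and 7.74 on controls and 7.51, 7.43, 7.29 and 7.68 on starved arrays, a difference of -0.04 ± 0.15 (95% interval -0.37 to 0.30). The starved range of Iars2 lay wholly inside its control range. Sars2 (seryl), at 6.92, 7.75, 7.53 and 7.41 on controls and at 7.17, 7.65, 7.71 and 6.78 on starved arrays, differed by -0.07 ± 0.24 (95% interval -0.60 to 0.46) and by 0.0423 without control B. Hars2 (histidyl), at 8.00, 8.41, 8.14 and 8.08 on controls and at 8.06, 7.96, 7.99 and 8.12 on starved arrays, differed by -0.13 ± 0.12, and by -0.0404 without control B. Fars2, the single-chain mitochondrial phenylalanyl enzyme, had 7.69, 8.39, 8.49 and 8.04 on controls and 7.67, 7.97, 8.61 and 7.40 on starved arrays, a difference of -0.24 ± 0.26 (95% interval -0.80 to 0.33) that was -0.16 without control B. The mitochondrial probe sets were measured with a median SE of 0.17, against 0.10 for the cytosolic ones, and the 95% intervals of Pars2, Ears2, Rars2, Tars2 and Sars2 include the fold change of Kars (0.34).

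A call in 1 gene and none in its paralog does not show that the genes differ, so the difference between the cytosolic and the mitochondrial log2 signal was compared between groups within each pair. Both genes were measured in 8 of 16 pairs, with Eprs set against both Ears2 and Pars2. The difference was larger in starved myotubes in all 8 pairs, and in 3 pairs every starved array lay above every control array. For Sars minus Sars2 it was 3.82, 3.22, 3.18 and 3.49 on controls and 4.48, 4.07, 4.14 and 4.88 on starved arrays, a change of 0.97 (two-sided exact permutation test, p = 0.0286, 0.0763 after adjustment over the 8 pairs). Iars minus Iars2 went from 2.57, 2.23, 2.42 and 2.39 to 2.88, 3.21, 3.35 and 3.24, a change of 0.77 with the same p-values. Tars minus Tars2 went from 0.79, 1.25, 1.46 and 1.14 to 1.61, 1.72, 1.97 and 1.82, a change of 0.62, again with the same p-values. With 70 labellings of 8 arrays 0.0286 is the smallest p this test can give, and no pair passed after adjustment. From that floor a pair can pass the adjustment over 8 pairs only if several pairs reach the floor together. The lack of a pass therefore does not show that the paralogs changed alike.

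The remaining 5 pairs overlapped between groups. Farsa minus Fars2 changed by 0.58 (exact permutation p = 0.371) and by 0.14 without control B. Eprs minus Ears2 changed by 0.51 (exact permutation p = 0.0857) and Eprs minus Pars2 by 0.44 (exact permutation p = 0.2). Hars minus Hars2 changed by 0.15 (0.22 without control B) and Rars minus Rars2 by 0.11 (exact permutation p = 0.257 for both). The order of the 8 changes is not firm, since it shifted when single arrays were left out: Farsa minus Fars2 was 0.84 without control A.

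**Figure D4:**
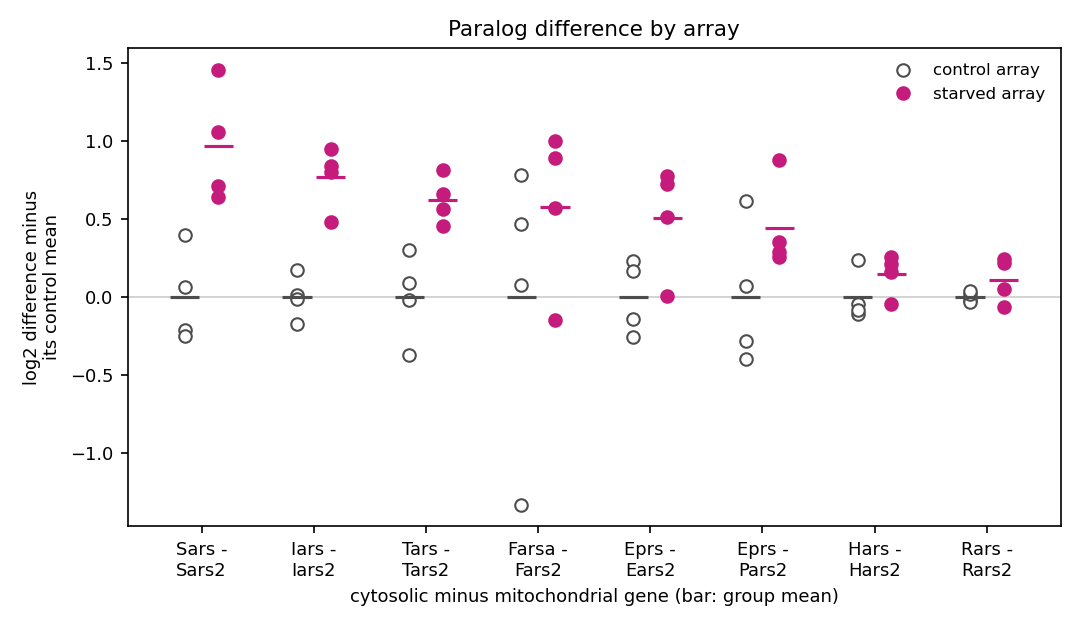
Log2 signal of the cytosolic gene minus that of its mitochondrial paralog on each array, shown relative to the pair's control mean, for the 8 pairs with both genes measured; points are arrays and bars are group means. The groups do not overlap for Sars minus Sars2, Iars minus Iars2 and Tars minus Tars2, and 1 low control point (control B) widens Farsa minus Fars2.

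None of the 3 scaffold genes was called by limma, and 1 (Aimp1) was higher at an unadjusted p of 0.05, as were 11.1% of all genes. Aimp1, a scaffold that is also secreted as a cytokine precursor, was at 9.94, 9.99, 9.96 and 9.97 on controls and at 10.39, 10.16, 10.34 and 10.09 on starved arrays. Its groups did not overlap, yet the difference of 0.28 ± 0.09 did not pass (adjusted p = 0.0672), and without starved H it did (0.0359). Aimp2, the core scaffold of the complex, was at 10.40, 10.83, 10.46 and 10.45 on controls and at 10.82, 10.79, 10.74 and 10.61 on starved arrays. Control B was its highest array, the difference was 0.20 ± 0.10 (adjusted p = 0.264), and without control B it was 0.30 and passed (adjusted p = 0.0358). Eef1e1 (also called Aimp3), which links the complex to elongation factor 1, was at 8.88, 9.22, 9.26 and 9.14 on controls and at 9.13, 9.32, 9.47 and 9.47 on starved arrays, a difference of 0.22 ± 0.12 (adjusted p = 0.291).

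Other genes of tRNA supply were read from a list of 101 genes, of which 63 were tested. Of these 3 rose, 0 fell and 60 did not pass, with a median of 0.05. The 3 rises are a share near the 4.25% of all genes called higher. At an unadjusted p of 0.05, 9 of the 63 were higher and 1 lower, where 11.1% of all genes were higher and 13.2% lower. Xpot, the exportin that carries tRNAs out of the nucleus, was at 8.21, 8.40, 8.44 and 8.30 on controls and at 9.23, 9.05, 9.39 and 9.56 on starved arrays. The groups were well apart, and Xpot rose by 0.97 ± 0.12 (adjusted p = 0.00046), about as much as Lars. The tRNA methyltransferases Mettl1, which makes 7-methylguanosine, and Trmt1, which dimethylates a guanosine, rose by 0.55 ± 0.13 (adjusted p = 0.0201) and 0.46 ± 0.10 (adjusted p = 0.0101). These were 2 of 24 tested genes of base modification, and Xpot was 1 of 18 of processing and export. None of 7 charging accessory and editing genes and none of 14 RNA polymerase III genes was called by limma, with 0 and 2 of them higher at an unadjusted p of 0.05. With the arrays unscaled none of the 3 passed. The promoter window of Xpot held the E-box but not the response element, and of 83 windows of the list 2.41% held the response element and 22.9% the E-box.

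The regulators of the amino acid response were measured on the same arrays. Atf4 mRNA rose by 0.67 ± 0.08 (adjusted p = 0.000284) and its target Asns, the asparagine synthetase, by 2.26 ± 0.08 (adjusted p = 2.35e-07). The 12 called synthetases thus changed by 0.34 to 0.95, against 2.26 for Asns. With the arrays left unscaled Atf4 was at 0.325 and not called (adjusted p = 0.178 in limma), whereas Asns was at 1.89 and still called. Eif2ak4 was too dim to be tested, with a mean log2 signal of 3.97 in controls and 4.14 in starved myotubes.

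Markers of the labelled cell type and of others were read beside these results. The 8 myotube markers were all bright, with a summed normalized signal of 69365 to 71510 in controls and 65529 to 67789 in starved arrays. Des, the muscle intermediate filament, fell by 0.22 (adjusted p = 0.0153). The other myotube markers were not called and ran from -0.21 (Ckm) to 0.29 (Myog). For Myog every starved array lay above every control array, as for 8.23% of all genes. For Des, Myh3 and Tnnc2 every starved array lay below every control array, as for 10.2% of all genes. Control B was low for Myog (11.90, other controls 12.57 to 12.66). The 3 fibroblast markers summed to 1049 to 1559 in controls and 2165 to 2577 in starved arrays. Dcn rose by 0.94 (adjusted p = 0.00147), while Pdgfra (0.56, adjusted p = 0.0777) and Thy1 (0.20, adjusted p = 0.555) were not called by limma. The mean log2 signal in controls was 10.1 for Dcn, 6.46 for Pdgfra and 6.88 for Thy1, so the sum mainly follows Dcn. The 4 measured markers of cycling myoblasts summed to 1711 to 1856 in controls and 1362 to 1585 in starved arrays. Cdk1 fell by 0.82 (adjusted p = 0.00159), and Top2a (-0.98), Pcna (-0.09) and Mki67 (-0.04) were not called. Starved arrays lay wholly above controls for Dcn and Pdgfra and wholly below them for Cdk1 and Top2a. Reserve cell, adipocyte and osteoblast markers overlapped between groups. The part of these shifts in the synthetase results was not tested, and in bulk RNA a change in the number of cells of a type and a change in mRNA per cell cannot be told apart.

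**Figure D5:**
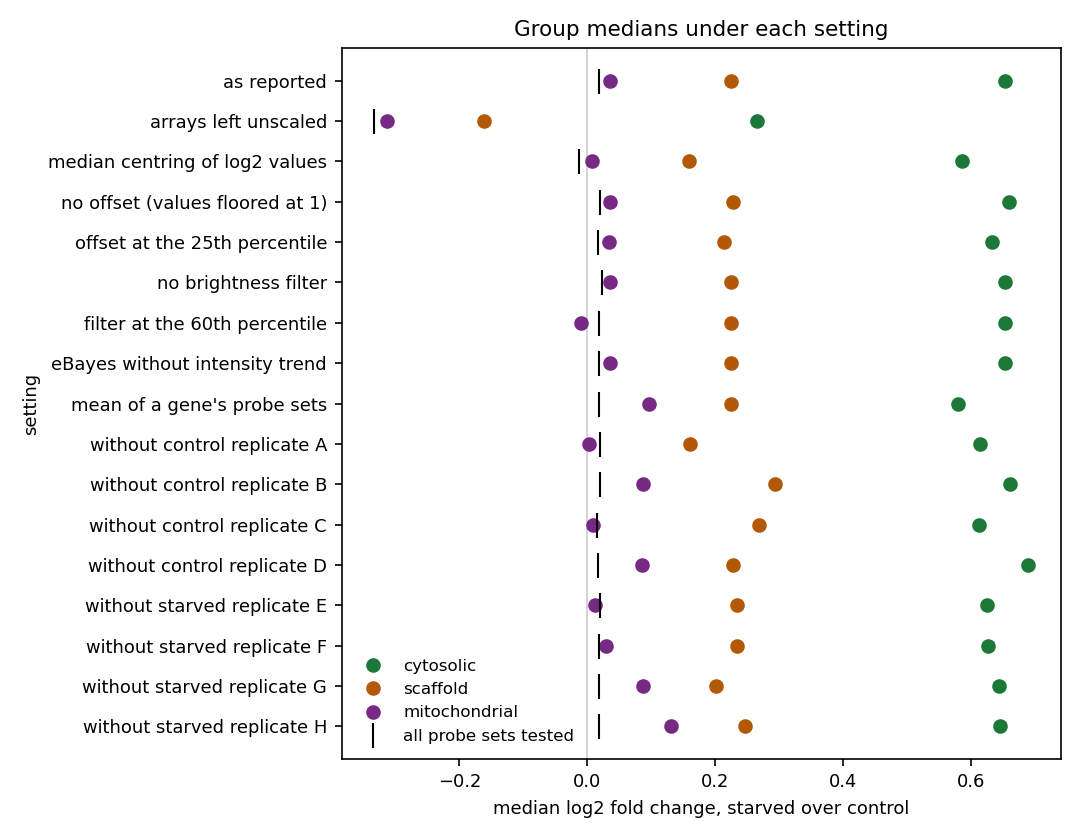
Median log2 fold change of the cytosolic, mitochondrial and scaffold genes under each way of processing the arrays, including the omission of each array in turn. The cytosolic median stays between 0.26 (unscaled) and 0.69 and lies 0.48 to 0.66 above the mitochondrial median in each of the 16 alternatives. Both ends of the latter range come from settings that left fewer mitochondrial genes: averaged probe sets (0.48) and the filter at the 60th percentile (0.66).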

How the data were processed

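RNA samples of C2C12 myotubes, 4 control and 4 starved, were hybridised to 1 Affymetrix mouse array each. The table the authors deposited holds 1 linear intensity per probe set and array. Their calculation and scaling are not given in the sources used here. No detection calls come with them, and precision is limited by the number of arrays. From it, values below 0 were set to 0, an offset of 10.9 (10th percentile) was added, log2 was taken, and arrays were quantile normalized, because their trimmed means (2% dropped at each end) were more than 5% away from their median. Fold changes on this scale understate those of dim genes. After removal of 64 control probe sets, the 13575 whose mean exceeded the 40th percentile (log2 6.61) entered the test. Of 22626 probe sets 20380 had 1 gene symbol in the platform annotation, which can be old, 691 several and 1555 none; each of 8352 genes is represented by the brightest such probe set among those tested. All 29 member symbols matched the RefSeq table by gene number.

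Groups were compared with limma 3.58.1 in R 4.3.3 (lmFit, eBayes with intensity trend), adjusted by Benjamini-Hochberg over all probe sets tested. An exact permutation test (two-sided) was used for each paralog difference. Every measured member may be named, with up to 4 called tRNA list genes in each direction and Atf4, Asns and Eif2ak4. The members, lists and motifs were chosen with earlier results of these data known. Alternatives were unscaled or median-centred arrays, other offsets and brightness filters, no intensity trend, averaging a gene's probe sets, and leaving out each array. The fit was tested on simulated data in which 200 of the 13575 probe sets above the brightness filter were changed. On the log2 scale limma recovered 29.9% of changes of 0.5, 74.6% of changes of 1 and 78.8% of changes of 2. Those too dim to be tested after simulation were counted as missed, and of tested changes of 2 it recovered 94.5%. The simulation gave 128 calls, 6 of them false. In the data 593 probe sets were called higher and 846 lower, so the recovery rates may not carry over. The promoter window of 1 member is not reported here. Promoter windows and figures were handled in Python 3.11.15 with matplotlib 3.10.9.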

Additional observations from a re-analysis of the deposited data

Results flagged for a closer look

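In 74 groups of 4 arrays examined (each member and each paralog pair in each condition), 10 had 1 array far from the other 3 by Dixon's test, which by chance picks about 1 group in 20. Control B was that array in 6 of the 10. It was high for Eprs (10.14, others 9.67 to 9.74), Hars (9.27, others 8.58 to 8.66), Rars (10.63, others 10.35 to 10.38), Rars2 (8.88, others 8.57 to 8.59) and Aimp2 (10.83, others 10.40 to 10.46), and low for Farsa (8.08, others 9.50 to 9.59), all as log2 signals. Control A was low for Ears2 (6.98, others 7.43 to 7.52) and control C for Tars2 (8.44, others 8.76 to 8.77). Starved H was low for Pars2 (7.18, others 7.70 to 7.76), and with it the difference Eprs minus Pars2 was high there (3.53, others 2.905 to 3.001).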

How the results depend on the processing

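Direction and call of Lars and Sars held in all 16 alternatives, and those of Nars, Eprs, Iars, Tars, Aars, Vars and Wars in all but unscaled arrays. Other counts of called cytosolic genes ran from 10 to 14. With arrays unscaled, 2 cytosolic genes, 0 tRNA list genes higher and 1 lower were called, and the medians were 0.26 (cytosolic), -0.31 (mitochondrial) and -0.16 (scaffold), beside -0.33 for all probe sets. The sign then turned for Farsa (-0.0262), Farsb (-0.14), Hars (-0.35), Kars (-0.0628), Qars (-0.34), Rars (-0.0819), Rars2 (-0.19), Tars2 (-0.26), Aimp1 (-0.11), Aimp2 (-0.18) and Eef1e1 (-0.16). Median centring turned Hars (-0.0326) and Qars (-0.0153), and it and the fit without intensity trend lost Gars and Kars. Averaging a gene's probe sets turned Hars (-0.0366), Qars (-0.03575), Hars2 (0.0706) and Hars minus Hars2 (-0.11), lost Cars and called Yars (adjusted p = 0.0492 in limma), as did the filter at the 60th percentile (0.0405). Leaving out 1 array gave 0 to 1 called scaffold genes, and ranges that cross 0 for Farsa (-0.0218 to 0.48), Hars (-0.0461 to 0.18), Iars2 (-0.13 to 0.03765) and Sars2 (-0.24 to 0.11). Without control C or D or starved E, Mettl1 was not called (0.53, 0.52 and 0.49). The exact permutation p of Sars minus Sars2 was 0.0571 without starved H, as was that of Tars minus Tars2 without any 1 starved array; it was 0.0286 for Eprs minus Pars2 without control B, Eprs minus Ears2 without starved G and Rars minus Rars2 without starved H. Beyond the shifts stated, the cause was not tested. The filter at the 60th percentile left 25 members, and averaging a gene's probe sets left 27, without Ears2 and Fars2. Pairs were not rerun under other filters or trends. No paired analysis was possible because replicate letters differ between the groups.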
